A study of Mus musculus with 8 samples.

Results

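Opioid signalling in the brain rests on a small set of genes, and 7 of them were followed here in red cells sorted from the mouse central amygdala of 2 Cre driver lines: the peptide precursors Pdyn, Penk and Pnoc, and the receptors Oprm1, Oprd1, Oprk1 and Oprl1. They were chosen by name as the opioid peptide and receptor genes, and they are 7 of the 21375 genes to which the deposited transcript values were summed. 3 are precursors and 4 are receptors, and 2 of the 7, Pdyn and Penk, had enough reads to pass the expression filter of the test.

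The central amygdala, a centre of fear, pain and reward behaviour, is rich in enkephalin and dynorphin neurons. Opioid peptides are cut from large precursors. Prodynorphin (Pdyn) gives the dynorphins, which act mainly on the kappa receptor Oprk1. Proenkephalin (Penk) gives the enkephalins, which act on the delta receptor Oprd1 and the mu receptor Oprm1, and prepronociceptin (Pnoc) gives nociceptin, the ligand of Oprl1. All 4 receptors couple to Gi/o proteins, which lower cyclic AMP, open inward rectifier potassium channels and close calcium channels.

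PkcdRed libraries (n = 4) came from PKC delta-type::Cre mice and SstRed libraries (n = 4) from SST::Cre mice, and all mice also carried the Rosa::loxP-STOP-loxP-td-Tomato reporter, so that cells that had used the Prkcd or Sst promoter became red. About 1000 red cells per male, unchallenged mouse were sorted from punches of the central amygdala, and each library was made from 1 mouse. PkcdRed replicates 3 and 4 came from mice of 18 weeks and replicates 1 and 2 from mice of 9 weeks; SstRed replicates 3 and 4 came from mice of 20 weeks and replicates 1 and 2 from mice of 8 weeks. A Cre reporter also keeps cells red that used the promoter only earlier in life.

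Library totals were 964361 to 2522749 estimated counts in mice of 18 to 20 weeks and 10316149 to 18242496 in mice of 8 to 9 weeks, so age class and depth cannot be told apart. A count of 0 allowed up to 3.11 CPM (counts scaled to the library total) in the shallowest library and 0.165 CPM in the deepest. The 8 pan-neuronal markers summed to 133.5 to 606.6 TPM (abundance scaled to transcript length and library total) in PkcdRed and 134.6 to 605.9 TPM in SstRed libraries. The vesicular GABA transporter Slc32a1, a defining gene of the GABA neurons that make up this nucleus, was at 0 in 4 of the 8 libraries, while the GABA-synthesising enzyme genes Gad1 and Gad2 had reads in all 8. The 12 microglial markers summed to 28632 to 46718 TPM in PkcdRed and 454.9 to 5178 TPM in SstRed libraries, and each of the 12 was higher in every PkcdRed library. Oligodendrocyte markers summed to 11542 to 28353 TPM in PkcdRed and 9443 to 56416 TPM in SstRed libraries, and mural cell markers to 100.8 to 3720 TPM in PkcdRed and 2144 to 10168 TPM in SstRed libraries. The oligodendrocyte sum was above the pan-neuronal sum in every library, so the libraries did not hold neurons alone. Prkcd itself stood at 106.5 to 225.7 TPM in PkcdRed and 0 to 30.2 TPM in SstRed libraries. PkcdRed replicate 2 went against its label in part, with 222.7 TPM of Sst against 0.209 to 13.7 TPM in the other 3 PkcdRed libraries and 116.3 to 296.2 TPM in SstRed libraries. The levels of Penk, Pnoc and Pomc, which rest on it, are therefore also given without it.

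Coding stretches of Penk and Pnoc from which the peptides are cut are shown because they define what a precursor mRNA can deliver. They were read from GENCODE M21 transcripts (GRCm38, minus strand for both genes). Capitals mark the codons of the opioid core, which is tyrosine, glycine, glycine, phenylalanine and then methionine or leucine in Penk, and a related run that starts with phenylalanine in Pnoc. The Penk stretch lies at chr4:4133848-4134087 in exon 2 of 2 and holds 4 of the 7 cores of the precursor. The Pnoc stretch lies at chr14:65404842-65404892 in exon 3 of 4 and is nociceptin itself.
Penk: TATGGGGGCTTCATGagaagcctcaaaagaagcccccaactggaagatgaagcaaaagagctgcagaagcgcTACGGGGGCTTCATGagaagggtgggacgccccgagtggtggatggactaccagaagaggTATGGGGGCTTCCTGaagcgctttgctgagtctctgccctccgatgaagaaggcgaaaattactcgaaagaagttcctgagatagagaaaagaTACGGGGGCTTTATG
Pnoc: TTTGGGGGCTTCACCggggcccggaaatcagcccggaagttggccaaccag

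Translated from the same coding frames, Penk encodes 268 residues with 7 cores, 6 with methionine and 1 with leucine. Pnoc encodes 187 residues with 1 core. A Penk molecule therefore carries more copies of a core than a Pnoc molecule, which the mRNA levels below do not take into account.

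Dynorphin precursor mRNA was nearly absent from PkcdRed libraries and present in every SstRed library. Pdyn (gene 18610, chromosome 2, 129686549 to 129699938, GRCm38.p6) had 0, 0.0636, 0 and 1.04 TPM in PkcdRed replicates 1 to 4, against 26.6, 74.7, 43.0 and 27.8 TPM in SstRed replicates 1 to 4. These values stood on 0, 1, 0 and 2 reads in PkcdRed and 645, 1451, 89 and 94 reads in SstRed libraries. The populations did not overlap: the lowest SstRed library was far above the highest PkcdRed library, at both ages. PkcdRed replicate 2, with Sst in the SstRed range, had 1 read of Pdyn.

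Of 11370 genes tested, 346 (3.04%) were likewise lower in all PkcdRed than in all SstRed libraries, so a separation of this kind is not rare. In edgeR's quasi-likelihood test with terms for age class and population the log2 fold change of Pdyn was -8.06 ± 1.85 (SE; unadjusted p = 0.00107), with an adjusted p of 0.156 over all genes. For edgeR, the SE here and below is the absolute log2 fold change divided by the square root of the test's F statistic. It is an approximation and not a fitted standard error. Neither of the 2 tested members was called, where 0.281% of all tested genes were. Of all tested genes, 32 were called higher and 0 lower in PkcdRed libraries. With DESeq2 the log2 fold change was -8.25 ± 1.35 (adjusted p 2.2e-07), where 0.809% of genes were called lower, and with no expression filter in edgeR it was -8.06 ± 1.94 (adjusted p 0.00377), where 0.299% were. Limma on log2(TPM + 1) called it (adjusted p 0.0216), where 0.0792% of genes were called lower, and on log2(TPM + 0.1) too (adjusted p 0.0479), where 0.0176% were. Within age classes edgeR gave -5.80 ± 1.96 in mice of 18 to 20 weeks and -10.4 ± 2.53 in mice of 8 to 9 weeks (adjusted p 0.49 and 0.772, 2 libraries against 2), and the difference between the classes was 4.32 ± 2.68 on the log2 scale (adjusted p 1.00, where 0% of genes were called).

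With 3 reads over all PkcdRed libraries the size of the difference is known only loosely. Pooled over libraries, the read rate in SstRed divided by that in PkcdRed was 686.6, with an exact 95% interval for read counting of 234.6 to 3332. The ratio of the mean CPM, which weights libraries equally, was 166.4. With 1 library left out the pooled ratio was 283.6 (without PkcdRed replicate 1), 466.7 (without SstRed replicate 2) and 1957 (without PkcdRed replicate 4, leaving 1 PkcdRed read), and 665.2 to 842.5 without each of the others. In such bulk samples, fewer cells with a transcript and less of it per cell cannot be told apart.

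**Figure D1:**
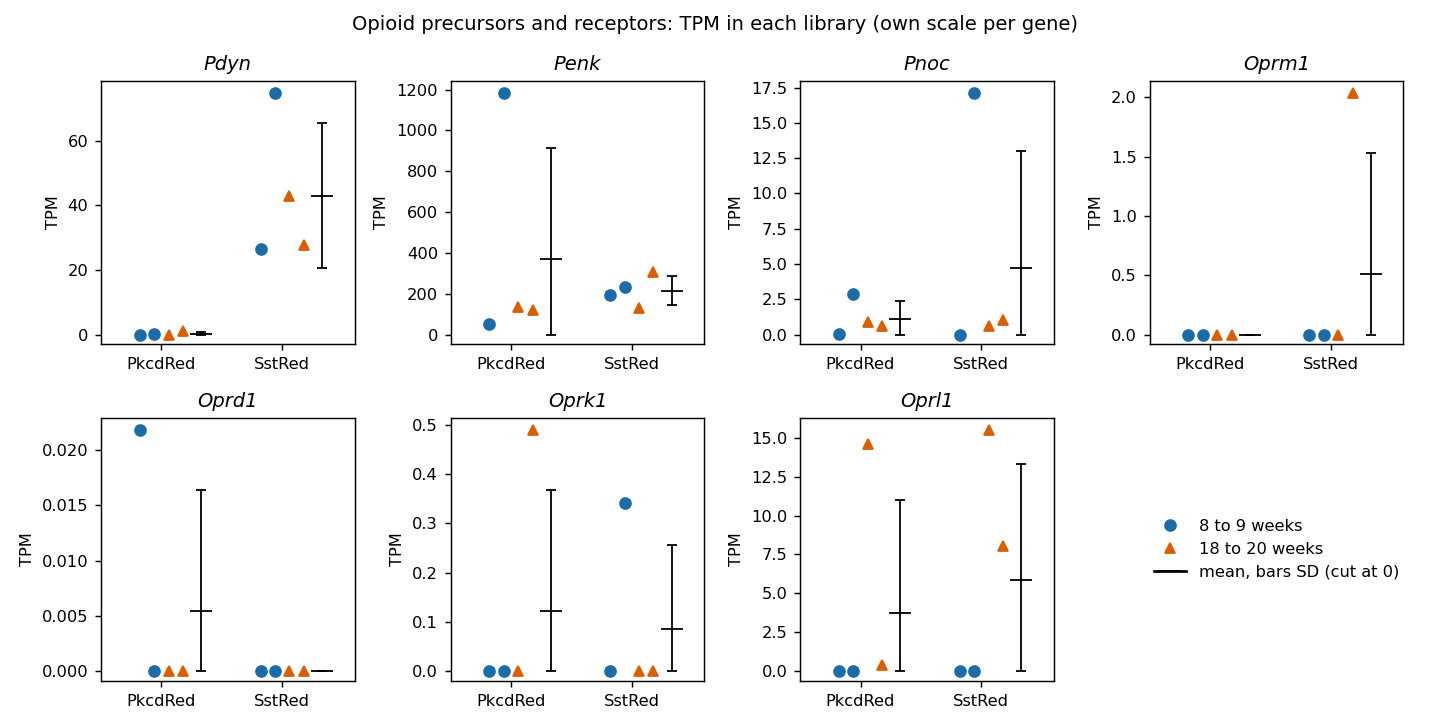
TPM of each gene in each library, PkcdRed left and SstRed right, with circles for mice of 8 to 9 weeks and triangles for 18 to 20 weeks, in order of replicate; the bar gives the mean and SD (n = 4, bars end at 0), and each panel has its own scale. Pdyn is at 1.04 TPM or less in PkcdRed and at 26.6 TPM or more in SstRed libraries, while Penk overlaps and stands at 1183 TPM in PkcdRed replicate 2.

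Enkephalin precursor mRNA was the most abundant of the 7 in all 8 libraries. Penk (gene 18619, chromosome 4, 4133536 to 4138815) had 49.5, 1183, 136.9 and 118.4 TPM in PkcdRed replicates 1 to 4, against 196.0, 230.6, 131.6 and 304.4 TPM in SstRed replicates 1 to 4. PkcdRed replicate 2 alone lay above the SstRed range, and PkcdRed replicates 1 and 4 lay below it. The mean was 372.0 ± 542.0 TPM in PkcdRed and 215.7 ± 72.0 TPM in SstRed libraries (SD, n = 4 each). With edgeR this came to a log2 fold change of 0.41 ± 0.89 (SE), at an adjusted p of 0.971.

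The direction of Penk rested on that library. Without PkcdRed replicate 2, the PkcdRed mean was 101.6 ± 46.1 TPM (SD, n = 3), the log2 fold change was -1.26 ± 0.61 (SE) and the adjusted p 0.808. Within age classes it was -0.73 ± 0.68 at 18 to 20 weeks and 1.5 ± 1.30 at 8 to 9 weeks. PkcdRed replicate 2 also had the largest GABA neuron marker sum of the 8 libraries, 198.7 TPM, and its part in the Penk value was not tested.

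Prepronociceptin mRNA was low. Pnoc (gene 18155, chromosome 14, 65400673 to 65425564) had 0.0441, 2.90, 0.91 and 0.576 TPM in PkcdRed replicates 1 to 4, against 0, 17.1, 0.603 and 1.06 TPM in SstRed replicates 1 to 4. SstRed replicate 2 with 307.2 reads and PkcdRed replicate 2 with 41 reads held nearly all reads of the gene, and the other 6 libraries had 0 to 3.21. Without PkcdRed replicate 2 the PkcdRed mean was 0.51 ± 0.437 TPM (SD, n = 3), against 1.11 ± 1.25 TPM with it (n = 4). The populations overlapped, and Pnoc did not pass the filter; with no filter edgeR gave a log2 fold change of -1.21 ± 2.75 (SE; adjusted p 0.964).

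Because total precursor level differed between libraries, the make-up of the precursor pool was compared within each library. Pdyn made up 0%, 0.00536%, 0% and 0.863% of the summed TPM of Pdyn, Penk and Pnoc in PkcdRed replicates 1 to 4, against 11.9%, 23.2%, 24.5% and 8.35% in SstRed replicates 1 to 4. The mean share was 0.217 ± 0.431% in PkcdRed and 16.997 ± 8.06% in SstRed libraries (SD, n = 4 each), a difference of -16.8 percentage points. An exact permutation test, two-sided, had p = 0.0286, which is the lowest value possible with 4 libraries against 4. This share uses the same Pdyn values as above and is no separate evidence. Penk made up 98.7 to 99.9% of this pool in PkcdRed and 71.5 to 91.3% in SstRed libraries, and Pnoc made up at most 0.66% in PkcdRed and 5.31% in SstRed libraries. The pool left out the precursor Pomc, so the shares hold only among Pdyn, Penk and Pnoc. Pomc stood at 0 to 214.7 TPM in PkcdRed and 4.58 to 43.4 TPM in SstRed libraries.

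Depth limits the shares of the shallow libraries. As shares of precursor reads, Pdyn was 0% in PkcdRed replicate 3 with 97 precursor reads (95% exact interval 0 to 3.73%) and 1.49% in PkcdRed replicate 4 (0.181 to 5.29%), while SstRed replicates 3 and 4 had 36.9% (30.8 to 43.4%) and 13.7% (11.2 to 16.5%). The intervals of the older PkcdRed libraries stayed below those of the older SstRed libraries. Amplification copies molecules, so these intervals describe the counting of reads and nothing else.

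**Figure D2:**
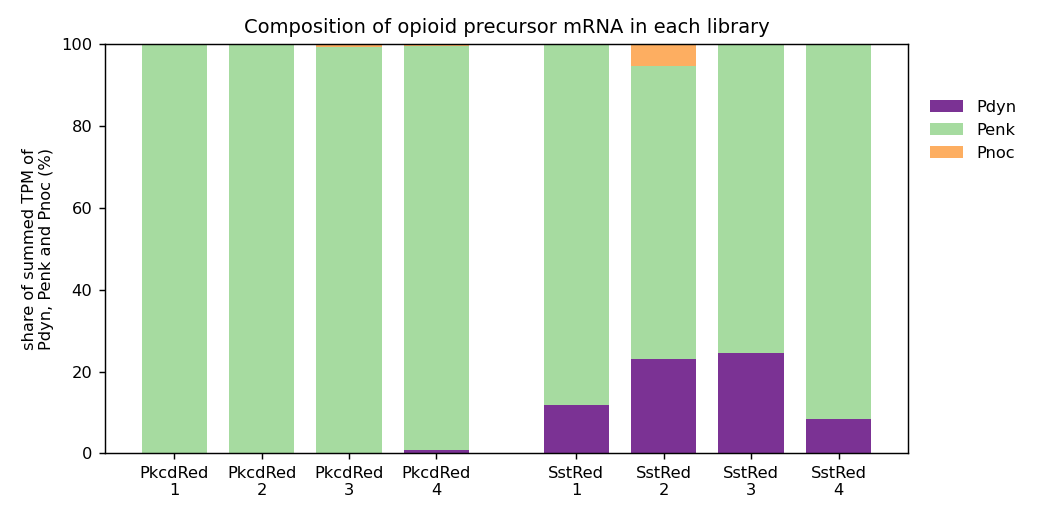
Share of the summed TPM of Pdyn, Penk and Pnoc (Pomc left out) held by each, in percent, for each library, PkcdRed left and SstRed right. Penk holds at least 98.7% in every PkcdRed library, and Pdyn holds 8.35 to 24.5% in SstRed libraries.

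TPM is a share of the whole library, and the populations differed in microglial RNA, so precursor levels were set against the 8 pan-neuronal markers of the same library. Pdyn stood at 0%, 0.0105%, 0% and 0.776% of the pan-neuronal sum in PkcdRed replicates 1 to 4, against 19.7%, 12.3%, 21.2% and 14.9% in SstRed replicates 1 to 4. The populations did not overlap on this scale, and the mean was 0.197 ± 0.386% in PkcdRed and 17.03 ± 4.13% in SstRed libraries (SD, n = 4 each), a log2 ratio of means of -6.44. Penk was at 94.8 ± 76.6% in PkcdRed and 102.8 ± 60.7% in SstRed libraries and overlapped; without PkcdRed replicate 2 the PkcdRed mean was 61.4 ± 45.9% (SD, n = 3). Neuronal marker sums overlapped between the populations, while the Pdyn ratios to them did not. With 0 to 2 reads of Pdyn in a PkcdRed library, its ratio is near 0 over any of these sums. The ratios use the same Pdyn values as above and are no separate evidence. Of the other markers, 2 of 5 for oligodendrocyte precursors and 1 of 6 for astrocytes were also lower in all PkcdRed libraries, with sums of 10.5 to 520.9 against 54.0 to 1856 TPM and 284.6 to 3756 against 2472 to 6549 TPM; their part in the Pdyn difference was not tested.

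**Figure D3:**
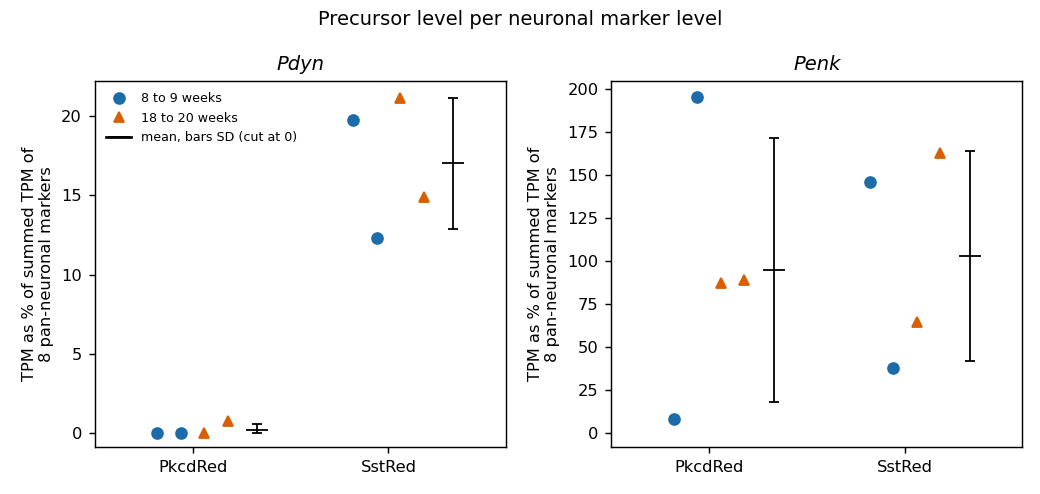
TPM of Pdyn (left panel) and Penk (right panel) as a percentage of the summed TPM of 8 pan-neuronal markers in the same library, PkcdRed left and SstRed right in each; circles are mice of 8 to 9 weeks, triangles 18 to 20 weeks, and the bar is the mean and SD (n = 4, ending at 0). Pdyn is at 0.776% or less in PkcdRed and at 12.3 to 21.2% in SstRed libraries; Penk overlaps.

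Reads of Pdyn were divided between 2 RefSeq transcripts. In SstRed replicates 2 and 4 all 1451 and 94 reads were given to the transcript of 2316 bases, while the transcript of 2507 bases received 145 of 645 reads in SstRed replicate 1 and 36.2 of 89 in SstRed replicate 3. The 3 reads of PkcdRed libraries were given to the shorter transcript. The 2 transcripts of Pnoc also split by library, since the 307.2 reads of SstRed replicate 2 were given to the transcript of 2157 bases and all Pnoc reads of the other libraries to that of 2101 bases. The division of reads between transcripts is an estimate made in the authors' quantification.

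The receptors were close to the detection limit. Together the 4 receptor genes had 121 estimated reads over all libraries, against 20229 for the 3 precursors, and 8 of the 32 pairs of receptor and library had any read. None of the 4 passed the expression filter, so the fit reported holds no test of them, and values with no filter are given instead.

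The mu receptor Oprm1 (gene 18390, chromosome 10, 6758593 to 7038209), the main target of morphine, had 0 reads in all 4 PkcdRed libraries, while SstRed replicate 4 had 5 reads (2.04 TPM) and the other 3 SstRed libraries had 0. All 5 were given to 1 of its 5 RefSeq transcripts in the files. A count of 0 over all PkcdRed libraries allowed up to 0.0965 CPM, a limit set mostly by the deep libraries of the younger class. In PkcdRed replicates 3 and 4, of the older class, it allowed up to 3.11 and 1.93 CPM. SstRed replicate 4, also older, had 1.98 CPM. The gene overlaps Ipcef1 over 152431 bases, and strand use in the assignment of reads was not given in the sources used here; Ipcef1 itself stood at 0 to 1.72 TPM in PkcdRed and 0 to 1.08 TPM in SstRed libraries.

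The delta receptor Oprd1 (gene 18386, chromosome 4, 132110188 to 132144486) had 1 read, in PkcdRed replicate 1 (0.0218 TPM), and 0 reads in all 4 SstRed libraries, which allowed up to 0.0872 CPM over the group. The kappa receptor Oprk1 (gene 18387, chromosome 1, 5588450 to 5606134) had 2 reads in PkcdRed replicate 4 (0.49 TPM) and 0 in the other 3 PkcdRed libraries, against 14 reads in SstRed replicate 2 (0.341 TPM) and 0 in the other 3 SstRed libraries. Each of these receptors thus rested on 1 library per population at most. With no filter edgeR gave log2 fold changes of -2.35 ± 2.69 for Oprm1, 1.30 ± 2.05 for Oprd1 and -0.65 ± 3.89 for Oprk1 (SE; adjusted p 0.949, 0.949 and 0.994).

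The nociceptin receptor Oprl1 (gene 18389, chromosome 2, 181715000 to 181720985) had the most receptor reads, and all of them came from the older age class of both populations. It had 0, 0, 14.6 and 0.402 TPM in PkcdRed replicates 1 to 4 and 0, 0, 15.5 and 8.04 TPM in SstRed replicates 1 to 4. The 4 libraries of mice of 18 to 20 weeks had 23, 1, 40 and 35 reads, all given to 1 of 2 RefSeq transcripts, and the 4 deeper libraries of mice of 8 to 9 weeks had 0. Between populations the log2 fold change with no filter was -0.38 ± 2.13 (SE; adjusted p 0.994).

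Pooled over libraries, Oprl1 had 14.99 CPM in the older class. The count of 0 in the younger class allowed up to 0.051 CPM, the level of 3 reads over its 4 libraries. The older rate divided by that ceiling was 294.1. This ratio takes the older rate as observed, so it is not a lower bound. It leaves out the counting error of the older reads and the spread between mice. Single older libraries ran from 0.643 CPM (PkcdRed replicate 4) to 25.6 CPM (SstRed replicate 3). PkcdRed replicate 4 gave 1 of the 99 older reads, and 98 remained without it. In edgeR with no filter the age difference had an adjusted p of 0.0498, where 0.71% of genes were called higher; under the expression filter the gene could be tested only in 5 fits with 1 library left out, with adjusted p of 0.344 to 0.476. Genes with reads in all 4 older and in none of the 4 younger libraries made up 0.0821% of the 17045 genes with a read, and 0.241% had the opposite pattern. The libraries with 0 reads of Oprl1 had totals of 10316149 or more. The run label in the names of the deposited files also differs between the classes, so that age, depth and run cannot be told apart. With both populations pooled in each age class, none of the 9 marker lists had sums that separated the classes. This comparison cannot show an age difference in a list that differs widely between the populations. Microglial sums, for example, ran from 454.9 to 46718 TPM in the older and from 1642 to 34375 TPM in the younger class. The part of cell make-up in the Oprl1 age difference was not tested.

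**Figure D4:**
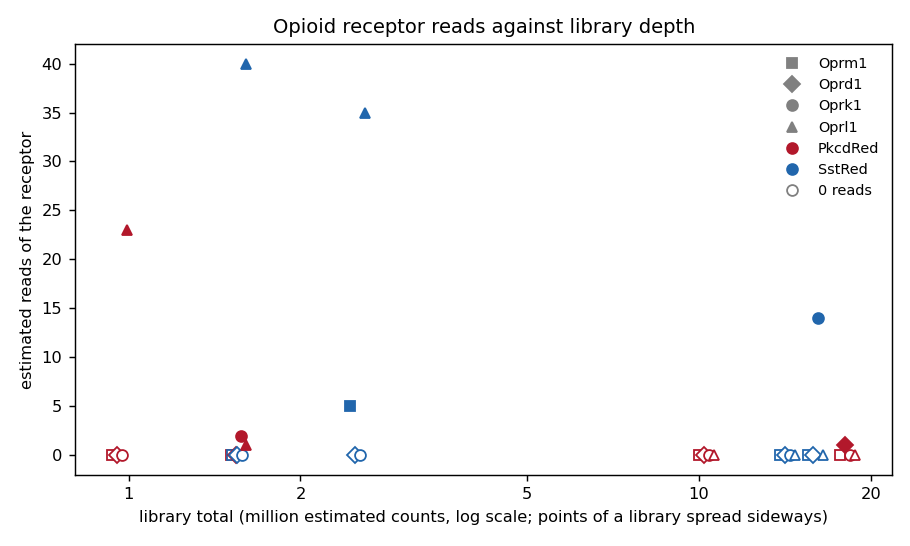
Estimated reads of each opioid receptor (marker shape) in each library against the library total of estimated counts (log axis), with PkcdRed in red and SstRed in blue and open markers for 0 reads. Oprl1 reads are seen only in the 4 libraries with the lowest totals, and the other receptors have reads in 1 or 2 libraries each.

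Neither Pdyn nor Penk was called between the age classes. Pdyn averaged 18.0 ± 21.1 TPM in the older and 25.3 ± 35.2 TPM in the younger class (SD, n = 4 each, both populations together), while the edgeR log2 fold change, fitted with the population term, had the opposite sign, 0.92 ± 1.45 (SE; adjusted p 0.896). Penk averaged 172.8 ± 88.1 TPM in the older and 414.8 ± 518.2 TPM in the younger class, with a log2 fold change of -1.37 ± 0.90 (SE; adjusted p 0.723). Without PkcdRed replicate 2, which holds the 1183 TPM of the younger class, that fold change was 0.36 ± 0.59 (SE; adjusted p 0.929). Over all genes 0.0616% were called for age class.

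Below Penk the order of the mean levels rested on few libraries. In PkcdRed libraries Penk was followed by Oprl1 (3.75 ± 7.23 TPM), Pnoc (1.11 ± 1.25), Pdyn (0.275 ± 0.508), Oprk1 (0.122 ± 0.245), Oprd1 (0.00546 ± 0.0109) and Oprm1 (0), and apart from Penk these neighbours overlapped. By the median the order was Pnoc (0.743 TPM), Oprl1 (0.201) and Pdyn (0.0318), since Oprl1 was at 0 in both younger libraries. In SstRed libraries Penk was followed by Pdyn (43.0 ± 22.4 TPM), which lay below Penk and above every other member in all 4 libraries, and then by Oprl1 (5.89 ± 7.45), Pnoc (4.69 ± 8.29), Oprm1 (0.509 ± 1.02), Oprk1 (0.0852 ± 0.17) and Oprd1 (0), which overlapped (SD, n = 4 for each).

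Further genes of the pathway were taken from 8 lists with 58 genes, of which 46 passed the filter. None was called between the populations, and the median log2 fold change of the 46 was 0.00, against -0.08 over all tested genes. An unadjusted p under 0.05 was found for 7 of the 46, a larger share than the 6.68% of all tested genes (759 of 11370). Whether the lists differ from other genes was not tested. Pomc, the precursor of beta-endorphin, was the fourth opioid precursor, with 68.6 ± 101.4 TPM in PkcdRed and 17.5 ± 17.9 TPM in SstRed libraries (SD, n = 4 each; log2 fold change 2.13 ± 2.43, adjusted p 0.94). It stood at 214.7 TPM in PkcdRed replicate 2, the library with the highest Penk, and at 19.9 ± 34.4 TPM in the other 3.

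Among 6 tested genes of precursor processing (median log2 fold change -0.80) the prohormone convertase Pcsk2, which cuts prodynorphin and proenkephalin, had 1.35 ± 1.90 TPM in PkcdRed and 17.1 ± 16.3 TPM in SstRed libraries (adjusted p 0.442). Its chaperone Scg5 had 78.7 ± 36.7 and 222.1 ± 41.5 TPM (adjusted p 0.56). Both lay lower in all PkcdRed than in all SstRed libraries, as did 3.04% of all tested genes. Ctsl, a cysteine protease of lysosomes and secretory granules, had 446.9 ± 39.8 against 251.6 ± 101.4 TPM (adjusted p 0.858). It lay higher in all PkcdRed libraries, as did 3.87% of all tested genes and the 12 microglial markers, whose part in it was not tested. Pcsk2, Scg5 and Ctsl are the 3 genes of smallest p of their list. Among 5 tested peptidases that break down opioid peptides (median -0.19) Dpp3, Anpep and Ece1 had log2 fold changes of 2.31 ± 1.5, -1.13 ± 1.43 and -0.34 ± 0.65 (SE; adjusted p 0.861 to 0.967), and all 3 overlapped.

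Downstream of the receptors, 10 genes of Gi/o proteins had a median of 0.12, 6 receptor kinases and arrestins 1.25, 6 RGS proteins -0.47 and 5 effectors -0.61, each with 0 called. Arrb2, the arrestin that ends mu receptor signalling, had 107.8 ± 25.1 TPM in PkcdRed and 17.1 ± 4.93 TPM in SstRed libraries (adjusted p 0.169). Rgs2 had 114.7 ± 59.8 and 22.1 ± 8.06 TPM (adjusted p 0.171), Rgs10 1208 ± 282.9 and 234.4 ± 266.4 TPM (0.294), and the G protein gamma subunit Gng2 77.8 ± 33.6 and 22.0 ± 10.01 TPM (0.423). These 4 lay higher in all PkcdRed than in all SstRed libraries, as did 3.87% of all tested genes and the 12 microglial markers, whose part in them was not tested; they are among the 3 genes of smallest p of their lists. Rgs4 had 439.0 ± 413.0 TPM in PkcdRed and 1041 ± 771.2 TPM in SstRed libraries and overlapped (adjusted p 0.448). Its SstRed mean was above the mean pan-neuronal sum of 282.7 TPM there. Mural cell markers summed to 1922 ± 1715 TPM in PkcdRed and 7054 ± 3447 TPM in SstRed libraries, and their part in Rgs4 was not tested.

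The next genes by unadjusted p overlapped between the populations. They were Gnb5 and Gnai2 (log2 fold change -1.83 ± 0.96 and 1.15 ± 0.67), the receptor kinase Grk2 and the arrestin Arrb1 (1.77 ± 0.82 and 2.04 ± 1.44), and the effectors Cacna1b, Adcy1 and Cacna2d1 (-2.93 ± 2.20, 2.13 ± 1.62 and -2.56 ± 2.07; SE, adjusted p 0.759 to 0.902 over the 7). Of 7 regulators of precursor genes (median 0.28) Kcnip3, the calcium-binding repressor of Pdyn transcription also called DREAM, had 17.1 ± 25.6 TPM in PkcdRed and 54.8 ± 51.2 TPM in SstRed libraries (adjusted p 0.861). Foxp1 and Fos had log2 fold changes of 0.63 ± 0.79 and -0.51 ± 0.68 (adjusted p 0.948 and 0.951).

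By age class 1 of the 46 pathway genes was called, where 0.0616% of all tested genes were, the AP-1 factor Jund, with 7.90 ± 5.65 TPM in the older and 341.0 ± 199.4 TPM in the younger class (SD, n = 4 each; log2 fold change -5.56 ± 0.79, adjusted p 0.0375). The call of Jund was not stable, since 0 genes were called lower in the older class with any 1 library left out or with limma-voom. Age, depth and run cannot be told apart here either. An unadjusted p under 0.05 was found for 12 of the 46, against 950 of 11370 over all genes. The median of the 46 was -0.58, against -0.17 over all genes. By list the medians were -2.10 for precursor processing, -1.39 for Gi/o proteins, -1.61 for effectors, -1.02 for RGS proteins, -0.39 for receptor kinases and arrestins, 0.53 for regulators of precursor genes and 1.30 for peptidases; Jund is one of the regulators.

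The genes whose log2(TPM + 1) went most with Pdyn over the 8 libraries were Plpp4 (Pearson r 0.99), Ndst3 (0.97) and Prkaa2 (0.97). Plpp4, a lipid phosphatase, stood at 0 to 3.70 TPM in PkcdRed and 30.3 to 100.7 TPM in SstRed libraries, highest in SstRed replicate 2 and lowest in SstRed replicate 4. Ndst3, an enzyme of heparan sulphate synthesis, stood at 0 to 1.85 and 9.15 to 10.03 TPM, and Prkaa2, a catalytic subunit of AMP-activated kinase, at 0 to 0.594 and 3.37 to 11.01 TPM. With Penk they were Prkrip1 (0.95), Hypk (0.95) and Scn2b (0.94), each highest in PkcdRed replicate 2, at 54.2, 934.3 and 39.6 TPM, and without that library their r was 0.92, 0.84 and 0.87 (n = 7). For Pdyn 37 genes and for Penk 13 genes had r above 0.9, and these values describe 8 libraries that share 2 populations and 2 depths.

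**Figure D5:**
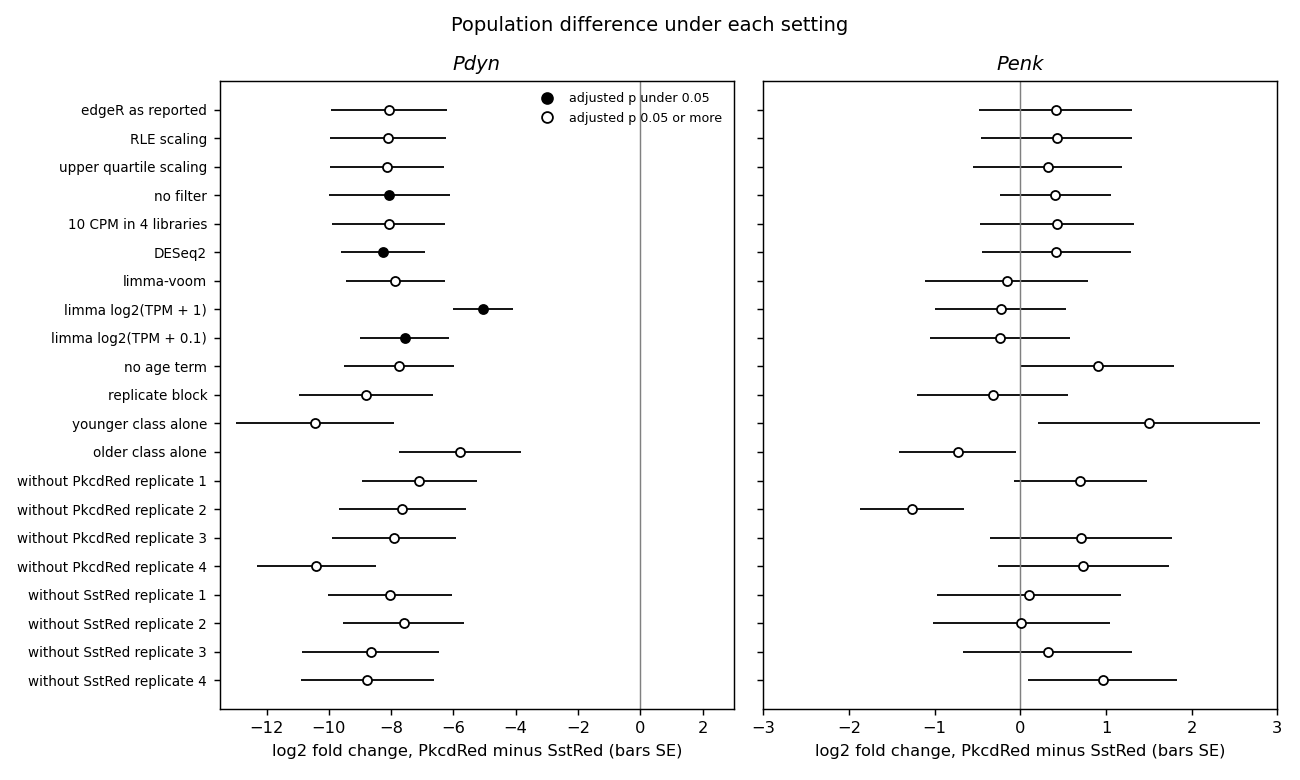
Log2 fold change of Pdyn (left) and Penk (right), PkcdRed minus SstRed, under each setting (rows), with bars for the SE and filled points for an adjusted p under 0.05. Pdyn lies between -10.4 and -5.06 in every row, with filled points for no filter, DESeq2 and both limma fits on TPM; Penk lies on both sides of 0, lowest without PkcdRed replicate 2.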

How the data were processed

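The authors deposited estimated counts and TPM per transcript. Tools named are kallisto 0.43.0 and BWA 0.7.12, with the build mm10, per the submitters' processing notes; the part BWA played was not given in the sources used here. The authors' TPM values are scaled to transcript length and library and keep no depth. Of 30404 targets, 29405 were named from the RefSeq table of GRCm38.p6 and 142 from GENCODE, and 857 kept their accession. Estimated counts were summed per symbol and rounded, and TPM was summed.

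The test was edgeR 4.0.16 (R 4.3.3; quasi-likelihood, TMM scaling, default filter by population, terms for age class and population) over all genes, with Benjamini-Hochberg adjustment at 0.05. Alternatives used DESeq2 1.42.0, limma 3.58.1, other scalings, filters and designs, and each library left out. Permutation tests used scipy 1.17.1. Each library is 1 mouse, so the spread behind a p-value mixes animal, sort and amplification.

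The members and gene lists were chosen with earlier results of these data known. Named were all members, the 3 genes of smallest p per pathway list and the 3 of most similar pattern per tested member. The coding sequence of Pdyn is not reported here.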

Additional observations from a re-analysis of the deposited data

Results flagged for a closer look

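A sample was singled out when its gap to the next one, as a share of its group's range, was above Dixon's critical value, which chance gives in about 1 of 20 groups of 4. This was so in 8 of the 12 groups of a gene and a population with any reads, but in 4 of the 8 only 1 library had reads, which puts the gap at the whole range by construction, so the number is not read against chance. Penk stood at 1183 TPM in PkcdRed replicate 2, against 136.9 TPM in the next PkcdRed library. Pnoc stood at 17.1 TPM in SstRed replicate 2, against 1.06 TPM in the next. Oprl1 stood at 14.6 TPM in PkcdRed replicate 3, the other PkcdRed libraries being at 0.402 TPM or less. Pdyn at 1.04 TPM in PkcdRed replicate 4 rested on 2 reads. The other 4 are receptors with reads in a single library of the group: Oprd1 at 0.0218 TPM (1 read) in PkcdRed replicate 1, Oprk1 at 0.49 TPM (2 reads) in PkcdRed replicate 4, Oprk1 at 0.341 TPM (14 reads) in SstRed replicate 2 and Oprm1 at 2.04 TPM (5 reads) in SstRed replicate 4.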

How the results depend on the processing

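Between populations 0 of the 7 genes were called in the fit reported and 1, Pdyn, with no filter, with DESeq2 and with limma on log2(TPM + 1) and log2(TPM + 0.1). Over the 20 alternatives Pdyn kept its sign, with log2 fold changes of -10.4 to -5.06 and adjusted p of 2.2e-07 to 0.772. Penk was negative with limma-voom (-0.16), with limma on both TPM scales (-0.23 each), with the replicate block (-0.32) and in the older class alone (-0.73); with 1 library left out it was -1.26 (without PkcdRed replicate 2) to 0.96. Between age classes 1 gene, Oprl1, was called with no filter. There Pdyn was -0.27 with limma-voom, a setting chosen after seeing the data, and -0.70 to 1.83 with 1 library left out, negative without PkcdRed replicate 4, and Penk was -1.93 to 0.36, positive without PkcdRed replicate 2. The cause of these changes was not tested. RLE scaling moved the median age difference over all genes to -0.06, against -0.17 with TMM. The Pdyn share of the precursors differed by -19.7 to -14.3 points with 1 library left out, where p cannot fall below 0.0571. With GABA neuron markers in place of pan-neuronal ones the log2 ratio of means was -7.43 for Pdyn, against -6.44, and -1.73 for Penk, against -0.12. On that scale Penk overlapped, at 215.7 to 595.3% in PkcdRed and 210.4 to 4548% in SstRed libraries. The 4548% was SstRed replicate 4, over a GABA neuron sum of only 6.69 TPM. Over all genes 32 were called higher and 0 lower in PkcdRed libraries, against 365 and 92 with DESeq2, 220 and 51 with no filter, 123 and 9 with limma on log2(TPM + 1), 67 and 2 on log2(TPM + 0.1), 10 to 52 higher and 0 or 1 lower with 1 library left out, and 0 within either age class. For age class 4 were called higher and 3 lower in the older class, against 260 and 316 with DESeq2, 121 and 134 with no filter, 27 and 35 and then 8 and 6 on the same TPM scales, 1 and 1 with the filter of 10 CPM, 0 with limma-voom (898 at an unadjusted p under 0.05) and at most 1 with 1 library left out.

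Replicate numbers are shared by the populations, but libraries of the same number were not treated as paired. Their deviations from the population means correlated at 0.0614 to 0.174, which includes what libraries of an age class share. Within age classes the correlation was -0.0035 for replicates 1 and 2 and -0.0064 for replicates 3 and 4. With the replicate block Pdyn had a log2 fold change of -8.81 (adjusted p 0.23), and 24 genes were called over all genes, against 32. Of the 8 libraries, 4 correlated best with the library of the same number.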
